A study of Homo sapiens with 16 samples.

Results

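Regions called by chromatin immunoprecipitation followed by sequencing (ChIP-seq) with an antibody against RELB were compared between T47D cells with a stable knockdown of DAB2IP and control cells. The comparison used 4 of the 16 libraries of the study, chosen by their labels alone: 2 with DAB2IP knockdown (KD_RelB) and 2 controls (Control_RelB). T47D is an established luminal A, estrogen receptor-positive breast cancer cell line, and both conditions were grown in RPMI-1640 with 10% fetal bovine serum. Knockdown cells carried a lentiviral shRNA (a hairpin that lowers an mRNA) against DAB2IP and control cells an empty vector control, as the labels put it (for other assays the study writes of a scrambled shRNA), and both were selected with 2 μg/ml puromycin for 72 hours. Which shRNA each knockdown library carried, and whether the 2 libraries of a condition came from separate infections, was not given in the labels. The remaining libraries were inputs and ChIP with antibodies against RELA and NFKB2. DAB2IP encodes a RasGAP that restrains Ras and NF-κB signaling.

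RELB is an NF-κB subunit without an inhibitory tail of its own. In the noncanonical pathway, ligands such as lymphotoxin and BAFF act through TNF receptor family members, the kinase NIK (MAP3K14) accumulates once TRAF3 and the BIRC2 and BIRC3 ligases release it, and IKKα (CHUK) triggers the cutting of the NFKB2 precursor to p52. RELB and p52 then bind κB elements as a pair. In breast cancer, this pathway is known mainly from hormone receptor-negative and stem-like cells. The comparison asks at which sites RELB was found with and without DAB2IP.

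A few of the promoters on which the text turns are shown first. They run from 250 bases before to 50 bases after a start site, come from RefSeq (GRCh38.p14), and read 5′ to 3′ on the gene's strand. Capitals mark matches to the κB consensus, searched on both strands. PSENEN and TMEM147 were chosen because the study discusses them for RELB. ITPRIP and CTXN3 had the strongest regions overlapping a promoter window that were called only in knockdown and only in control libraries, respectively. PHACTR2, DENND11 and PTPRE were picked after their values were seen, because their windows hold a κB match. That match lies outside the called region in PHACTR2 and DENND11 and inside it in PTPRE.
PSENEN (chr19:35745401-35745700, plus strand): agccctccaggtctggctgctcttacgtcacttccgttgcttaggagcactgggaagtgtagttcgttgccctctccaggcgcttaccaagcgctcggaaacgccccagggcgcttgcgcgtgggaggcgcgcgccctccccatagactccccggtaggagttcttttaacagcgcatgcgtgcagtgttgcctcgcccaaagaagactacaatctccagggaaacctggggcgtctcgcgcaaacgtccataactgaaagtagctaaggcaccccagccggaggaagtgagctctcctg
TMEM147 (chr19:35545376-35545675, plus strand): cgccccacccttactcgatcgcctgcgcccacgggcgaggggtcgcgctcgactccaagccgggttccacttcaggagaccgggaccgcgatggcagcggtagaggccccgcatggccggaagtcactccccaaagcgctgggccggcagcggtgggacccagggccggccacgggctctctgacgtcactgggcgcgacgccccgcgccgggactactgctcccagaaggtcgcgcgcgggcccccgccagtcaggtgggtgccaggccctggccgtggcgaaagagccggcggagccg
ITPRIP (chr10:104333856-104334155, minus strand): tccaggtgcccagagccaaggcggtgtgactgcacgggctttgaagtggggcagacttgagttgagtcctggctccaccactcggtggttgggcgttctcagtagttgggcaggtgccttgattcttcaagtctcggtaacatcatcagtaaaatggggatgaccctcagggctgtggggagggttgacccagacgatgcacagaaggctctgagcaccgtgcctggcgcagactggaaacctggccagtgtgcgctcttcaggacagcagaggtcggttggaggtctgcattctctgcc
CTXN3 (chr5:127648832-127649131, plus strand): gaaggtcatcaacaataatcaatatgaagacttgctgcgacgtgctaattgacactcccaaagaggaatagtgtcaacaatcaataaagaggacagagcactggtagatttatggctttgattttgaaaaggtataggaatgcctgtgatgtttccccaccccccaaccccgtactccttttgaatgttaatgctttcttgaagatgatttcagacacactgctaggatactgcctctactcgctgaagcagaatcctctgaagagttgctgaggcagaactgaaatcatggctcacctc
PHACTR2 (chr6:143536628-143536927, plus strand): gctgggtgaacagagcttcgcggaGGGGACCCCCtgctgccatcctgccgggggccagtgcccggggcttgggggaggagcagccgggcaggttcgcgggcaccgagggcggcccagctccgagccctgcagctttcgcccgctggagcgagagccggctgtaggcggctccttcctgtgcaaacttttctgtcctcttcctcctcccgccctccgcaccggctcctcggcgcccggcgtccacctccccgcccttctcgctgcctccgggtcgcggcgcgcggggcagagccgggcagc
DENND11 (chr7:141702117-141702416, minus strand): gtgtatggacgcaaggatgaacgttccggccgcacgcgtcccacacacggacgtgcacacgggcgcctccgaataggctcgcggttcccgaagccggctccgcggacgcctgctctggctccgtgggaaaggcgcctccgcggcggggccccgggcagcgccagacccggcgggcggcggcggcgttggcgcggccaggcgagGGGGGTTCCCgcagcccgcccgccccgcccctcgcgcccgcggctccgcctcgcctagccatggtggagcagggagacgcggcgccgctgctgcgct
PTPRE (chr10:128047362-128047661, plus strand): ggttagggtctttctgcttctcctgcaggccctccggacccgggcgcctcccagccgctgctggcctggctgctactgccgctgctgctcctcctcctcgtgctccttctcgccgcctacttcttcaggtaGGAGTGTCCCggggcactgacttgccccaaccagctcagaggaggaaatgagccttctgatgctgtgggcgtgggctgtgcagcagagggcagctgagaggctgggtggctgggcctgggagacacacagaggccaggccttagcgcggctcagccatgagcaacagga

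Knockdown replicate 1 stood apart from the other 3 RELB libraries before any comparison. It had 75060 peaks on chromosomes 1 to 22 and X, against 552227 in knockdown replicate 2, 557151 in control replicate 1 and 524731 in control replicate 2. The log2 peak number averaged 17.64 ± 2.04 (SD, n = 2) in knockdown and 19.04 ± 0.06 in control libraries, a difference of −1.41 that the spread between the knockdown libraries covered (exact permutation test, two-sided, p = 0.667, where 2 against 2 cannot go below 0.333). Without knockdown replicate 1 the difference was 0.03. Peaks were listed down to an unadjusted p-value of 0.05, and their summits rested on few DNA fragments, with a median of 4, 4, 3 and 3 in the same order. A q-value (p adjusted for multiple testing) of at most 0.05 was reached by 77, 200, 164 and 139 peaks. The values of knockdown replicate 1 fitted only when its IP fragments were scaled by 0.983, while those of the other 3 needed no scaling. The depth of the libraries is unknown, because the files give peaks only.

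Peaks of the 4 libraries that shared at least 1 base were joined, which gave 1522150 regions. Of these, 5276 were called in both knockdown and in neither control library (0.347% of all regions), and 45015 in both control and in neither knockdown library (2.96%). Pairs that mix the conditions gave about as many. Among the 3 pairs that contain the short list of knockdown replicate 1, knockdown 1 with control 1 shared 5464 regions (0.359%) and knockdown 1 with control 2 shared 4935 (0.324%), so that the count of the knockdown pair lay between the 2 mixed ones. Among the pairs without it, knockdown 2 with control 1 shared 47620 (3.13%) and knockdown 2 with control 2 shared 46602 (3.06%), and both exceeded the control pair. Per 100 peaks of the 2 lists joined, the knockdown pair gave 0.841 regions against 0.864 and 0.823 in the mixed pairs, and the control pair 4.16 against 4.29 and 4.33. Only 417 regions were called in all 4 libraries.

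**Figure D1:**
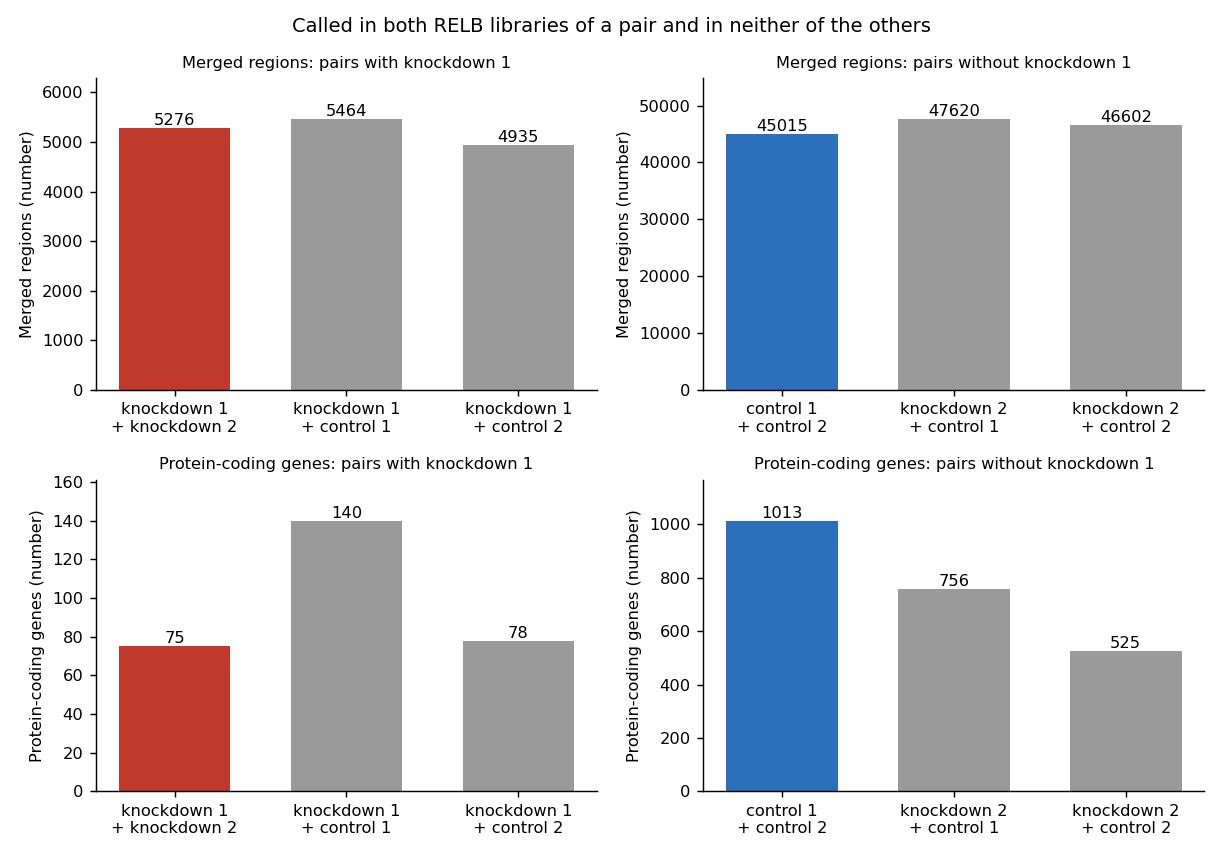
Number of merged regions (top) and protein-coding genes (bottom) called in both RELB libraries of a pair and in neither of the others, with pairs that contain knockdown replicate 1 on the left and the others on the right. Red is the knockdown pair, blue the control pair and gray the mixed pairs. The knockdown pair (5276 regions) lies between its mixed pairs (5464 and 4935), and the control pair (45015) below both of its own (47620 and 46602).

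Lists of equal length gave a like picture. With the 75060 smallest p-values of each library, the knockdown pair had 1148 regions against 1127 and 1162 in the mixed pairs, and the control pair 1441 against 1509 and 1549. With peaks at a −log10 p-value of at least 2, the knockdown pair lay above its mixed pairs (1855 against 1791 and 1781) and the control pair below (15008 against 15790 and 16304). The 20000 smallest p-values turned this around, with 147 against 156 and 148 for the knockdown pair and 256 against 222 and 221 for the control pair. When each list was shortened to peaks with a q-value of at most 0.05, 4 regions were left in the knockdown pair (mixed pairs 4 and 2) and 8 in the control pair (6 and 2). Neither condition was thus above or below its mixed pairs under all of these settings.

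The summits of a shared region seldom coincided. Their median distance was 103 bp in knockdown-only and 112 bp in control-only regions, against 100 to 112 bp in the mixed pairs. Summits lay within 50 bp of each other in 25.9% of knockdown-only and 23.4% of control-only regions, and in 23.4% to 26.7% of those of mixed pairs. The weaker summit of a region had a median of 4 fragments in knockdown-only and 3 in control-only regions. With all peaks kept, both libraries reached a q-value of 0.05 in 2 knockdown-only regions and 2 control-only regions, all 4 of them in satellite blocks, and in 1 to 3 regions of each mixed pair.

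Regions were placed by RefSeq genes into 3 kinds of sequence. Satellite blocks were taken as the longest stretch without any annotated gene on each chromosome, which holds the centromeric repeats on most chromosomes (23 blocks, 5.64% of the span). On chromosomes 14, 21 and 22 that stretch lies on the short arm and held only 1, 0 and 43 merged regions. The 5.64% thus includes long stretches almost without peaks and is no expectation for a share of regions. Gene deserts were stretches of at least 1 Mb without a protein-coding gene (325, 18.4% of the span), and protein-coding genes were taken with 1 kb added on either side (42.6%). What lay in none of these was counted as the rest.

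Knockdown-only regions can be read against all 1522150 merged regions, of which 43.3% lay in protein-coding genes, 21.6% in gene deserts, 1.32% in satellite blocks and 1.01% within 1 kb of a start site of a protein-coding gene. Of the 5276, 2224 (42.2%, exact 95% binomial interval 40.8 to 43.5) lay in protein-coding genes, 1214 (23.01%, 21.9 to 24.2) in gene deserts and 122 (2.31%, 1.92 to 2.75) in satellite blocks. Near start sites, in windows that cover 1.20% of the span, lay 46 (0.872%, 0.639 to 1.16), an interval that holds the share over all regions. Mixed pairs with knockdown 1 had 43.0% and 40.8% in genes, 19.6% and 22.1% in deserts, 2.69% and 2.45% in satellite blocks, and 1.37% and 0.993% near start sites. The shares of knockdown-only regions near start sites and in satellite blocks were thus below both mixed pairs and the share in deserts above both, while genes lay between them. Yet the knockdown-only intervals held both mixed values for satellite blocks. They also held 22.1% for deserts and 0.993% for start sites, so these orders are not set apart from counting error against both mixed pairs. The intervals cover counting error only, and regions of 1 pair of libraries are not replicates.

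Of the control-only regions, 18796 (41.8%, 41.3 to 42.2) lay in protein-coding genes, 10127 (22.5%, 22.1 to 22.9) in gene deserts and 1136 (2.52%, 2.38 to 2.67) in satellite blocks, with 370 (0.822%, 0.741 to 0.910) near start sites. Knockdown 2 with control 1 and knockdown 2 with control 2 had 41.1% and 40.6% in genes, 24.2% and 25.6% in deserts, 2.33% and 2.08% in satellite blocks, and 0.804% and 0.631% near start sites. The control-only shares were slightly above both in genes and satellite blocks and slightly below both in deserts, while near start sites 0.804% lies within the control-only interval. Of the 417 regions called in all 4 libraries, 16.1% (12.7 to 19.95) lay in satellite blocks, above every pair, and 1 lay near a start site (0.240%, 0.00607 to 1.33), too few to set apart from the pairs.

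**Figure D2:**
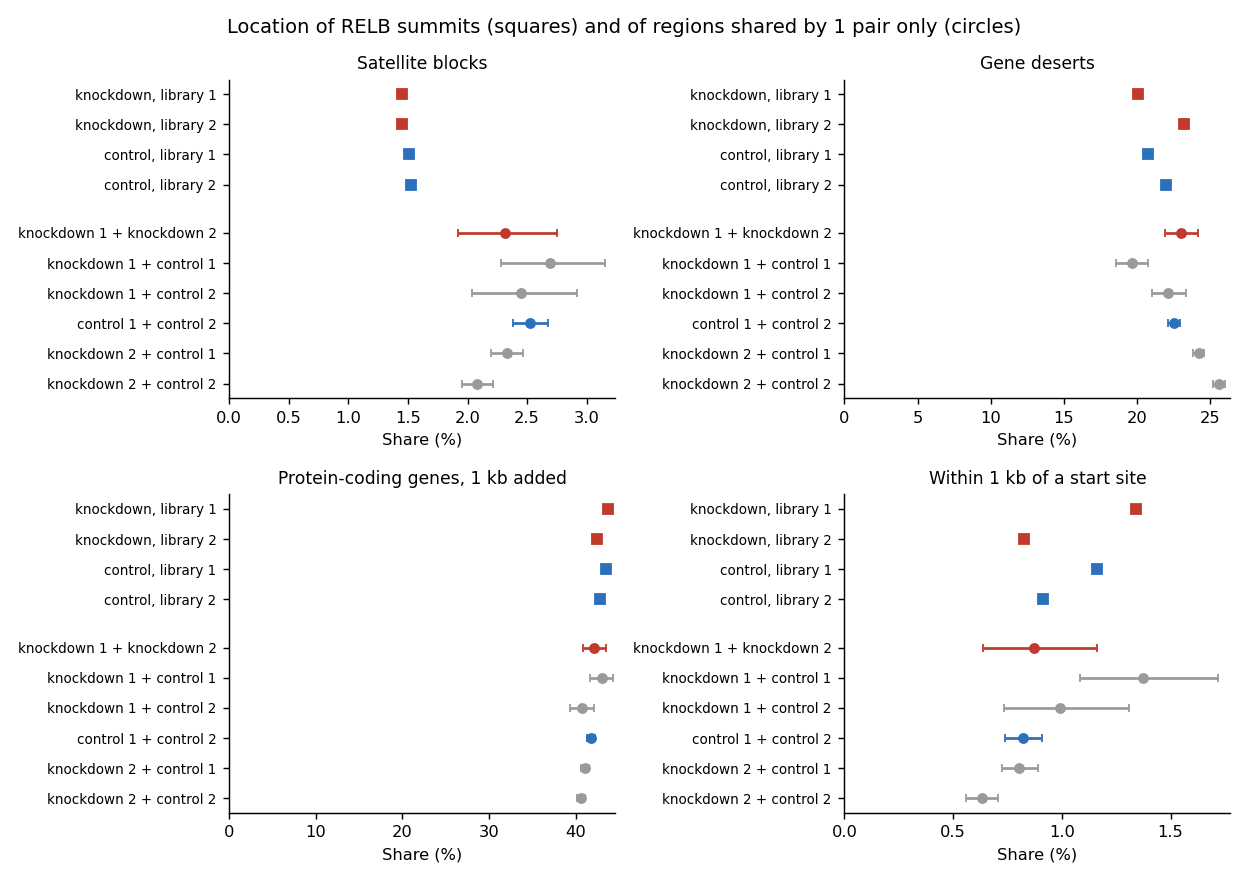
Share (%) of the summits of each RELB library (squares, all peaks) and of the regions called in 1 pair of libraries only (circles, with exact 95% binomial intervals) in satellite blocks, gene deserts, protein-coding genes and within 1 kb of a start site. Red is knockdown, blue control and gray mixed pairs. The desert share runs from 19.6% to 25.6% among pairs and is lowest for knockdown 1 with control 1, and the start-site share is highest for that pair (1.37%).

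Over all peaks of a library, the shares did not separate the conditions except in satellite blocks. There the knockdown libraries had 1.449% and 1.450% of their summits and the controls 1.507% and 1.525%, a difference of −0.066 percentage points (exact permutation test, two-sided, p = 0.333, the smallest possible, BH-adjusted over 6 comparisons p = 1). With 1 Mb added on either side of the blocks the groups overlapped. The direction also turned with the peaks used: the difference was 9.779 percentage points for peaks with a q-value of at most 0.05 and 0.1839 with summits of the 3 unscaled libraries lowered by 1 fragment. In gene deserts lay 20.03% and 23.19% of knockdown and 20.75% and 21.97% of control summits (p = 1, exact permutation test). Within 1 kb of start sites lay 1.34% and 0.825% of knockdown and 1.16% and 0.911% of control summits (p = 1, exact permutation test).

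The start-site share was higher in replicate 1 than in replicate 2 in both conditions. Relative to the density 10 to 50 kb away, summits within 1 kb of start sites were 1.14 and 0.779 times as dense in knockdown replicates 1 and 2, and 1.00 and 0.832 times in control replicates 1 and 2. No library reached a density 1.5 times that of the surrounding sequence in any 250-bp bin. Counting the RELA and NFKB2 libraries, replicate 1 had the higher start-site share in 5 of the 6 groups of 2 libraries and the lower desert share in 5 of 6. The labels do not say whether libraries of 1 number were made together, and the part of this in the shares of the pairs above was not tested.

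**Figure D3:**
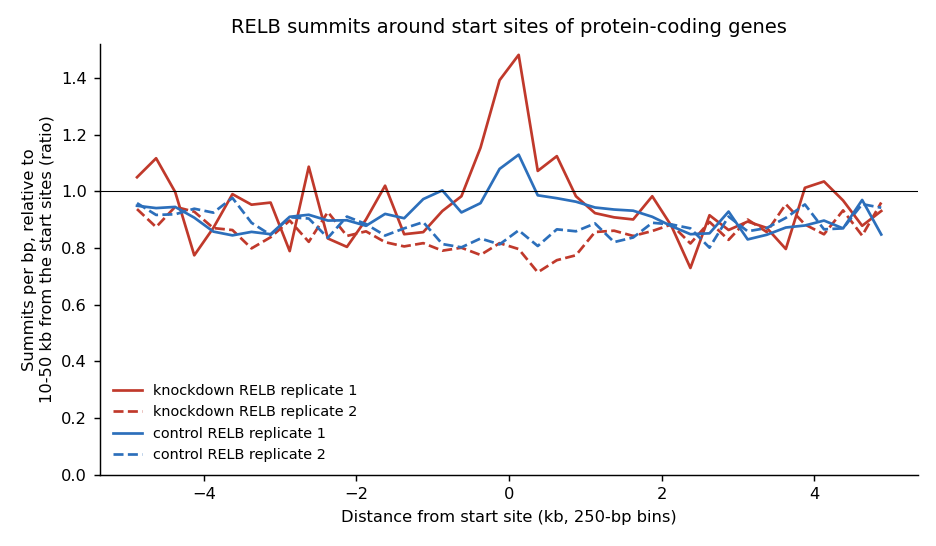
Density of RELB summits in 250-bp bins around start sites of protein-coding genes (kb, not oriented by strand), as a ratio to the density 10 to 50 kb away, with 1 line for each library. Red is knockdown, blue control, solid lines replicate 1 and dashed lines replicate 2. Replicate 1 rises at the start site in both conditions (to 1.48 in knockdown and 1.13 in control), and neither replicate 2 does.

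Stronger regions lay in satellite blocks more often than weaker ones, in single-condition and in mixed pairs. Where both libraries had a −log10 p-value of at least 3, 29 of 156 knockdown-only regions (18.6%) and 120 of 977 control-only regions (12.3%) lay in satellite blocks, against 14.5% to 20.5% and 8.07% to 10.7% in the matching mixed pairs. At a −log10 p-value of at least 4, the blocks held 13 of 23 knockdown-only regions (56.5%), where the mixed pairs with knockdown 1 had 54.2% of 24 and 52.4% of 21. Among control-only regions they held 36 of 81 (44.4%), and the mixed pairs without knockdown 1 had 45.6% of 103 and 28.7% of 87. Of the peaks with a q-value of at most 0.05, satellite blocks held 74.0% in knockdown 1, 67.0% in knockdown 2, 64.6% in control 1 and 56.8% in control 2, and none of them lay within 1 kb of a start site.

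**Figure D4:**
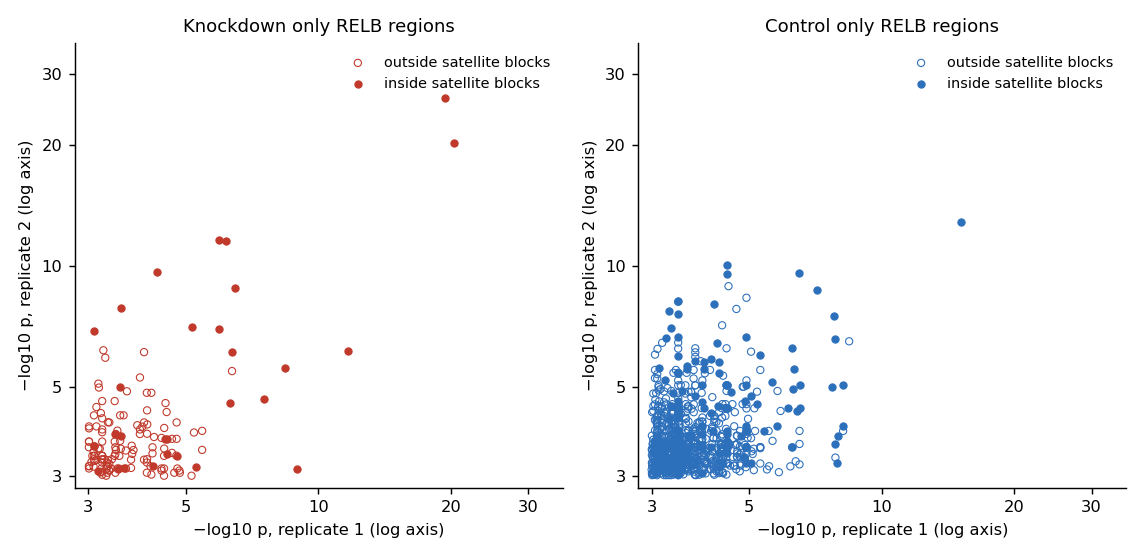
−log10 p-value of the knockdown-only (left, red) and control-only (right, blue) RELB regions in replicate 1 (horizontal) and replicate 2 (vertical) of their condition, on log axes, for regions at 3 or more in both. Filled points lie in satellite blocks. The 6 knockdown-only regions at 6 or more in both libraries are all filled, as are 6 of the 7 control-only ones.

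The 5 strongest knockdown-only regions, ranked by the weaker of their 2 p-values, all lay in satellite blocks. How reads were placed among the repeats of these blocks is not given in the peak lists, so positions there are uncertain as well. The first, at chr1:143185131-143185300, had a summit at the same base in both knockdown libraries, with 135 and 163 fragments, fold enrichments of 2.52 and 2.26 and −log10 p-values of 20.3 and 20.2. It was also called in 7 of the 8 RELA and NFKB2 libraries, the 4 controls among them. The second, at chr1:143255561-143255713, had 79 and 105 fragments, fold enrichments of 3.37 and 3.41 and −log10 p-values of 19.4 and 26.3. None of the 8 other libraries called it, and the nearest control RELB peaks lay 715 and 693 bp away. The next ones, at chr10:41851760-41851926, chr10:40700983-40701167 and chr11:51266193-51266367, had fold enrichments between 2.69 and 7.11 and reached a q-value of 0.05 in 1 of their 2 libraries each.

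The strongest control-only region lay at chr10:41186215-41186384, in the satellite block of chromosome 10 as well. It had 33 and 32 fragments, fold enrichments of 5.06 and 4.41 and −log10 p-values of 15.1 and 12.9, and 4 of the 8 RELA and NFKB2 libraries called it too. Those at chr2:93356271-93356469, chr7:59759133-59759320 and chr3:92642180-92642730 were in blocks and were called by 3, 6 and 4 of those libraries. The fifth, at chr17:43288311-43288747, was the only one outside a block, 57.0 kb from CCDC200, with 10 and 7 fragments, and 5 of the 8 called it.

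Outside satellite blocks the regions were weak. The strongest knockdown-only one, at chr1:108277816-108278176, lay on the pseudogene SLC25A24P1 with 4 and 3 fragments and −log10 p-values of 6.36 and 5.47. It was also called in 4 RELA and NFKB2 libraries, control RELA replicate 2 and control NFKB2 replicate 2 among them. Among the next 4 was a region in FBN2, the gene of the connective tissue protein fibrillin-2 (chr5:128513403-128513963, 7 and 6 fragments). Control-only regions outside the blocks lay on FAM138C (chr9:35055-35355), RASA4B (chr7:102496625-102497588), RGPD4 (chr2:107840025-107840619) and GRAPL (chr17:19151674-19152337), with 3 to 7 fragments. These 4 belong to families of near-identical copies, between which the mapping may divide reads, so their position is uncertain.

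RELB regions of a pair were called with the other antibodies more often in libraries that matched that pair in condition and number. No label says that libraries agreeing in both were made together, and they are called matched here. Leaving out knockdown RELA replicate 1, which has a short list, each RELA or NFKB2 library called 21.8% to 27.1% of the regions of a RELB pair that contained its matched library (21 values), and 10.9% to 17.8% of those of a pair that did not (21 values). The ranges do not overlap, and of all merged regions the same 7 libraries called 11.1% to 15.1%. Knockdown RELA replicate 1 called 6.02% to 6.79% against 2.65% to 2.83%. Knockdown-only RELB regions were called by the knockdown NFKB2 libraries in 26.6% and 24.0% and by the control NFKB2 libraries in 16.09% and 16.02%. Control-only regions were called by the control NFKB2 libraries in 26.5% and 26.9% and by the knockdown ones in 15.1% and 16.9%. Mixed pairs showed such a step too: regions of knockdown 1 with control 1 were called in 27.0% and 24.8% by the 2 matched NFKB2 libraries and in 14.33% and 14.99% by the other 2. Any of the 8 libraries called 73.8% of knockdown-only and 75.9% of control-only regions, against 72.8% to 76.5% in the mixed pairs and 60.2% of all merged regions. Whether matched libraries shared a chromatin preparation, and which input each list was called against, was not given in the sources used here.

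**Figure D5:**
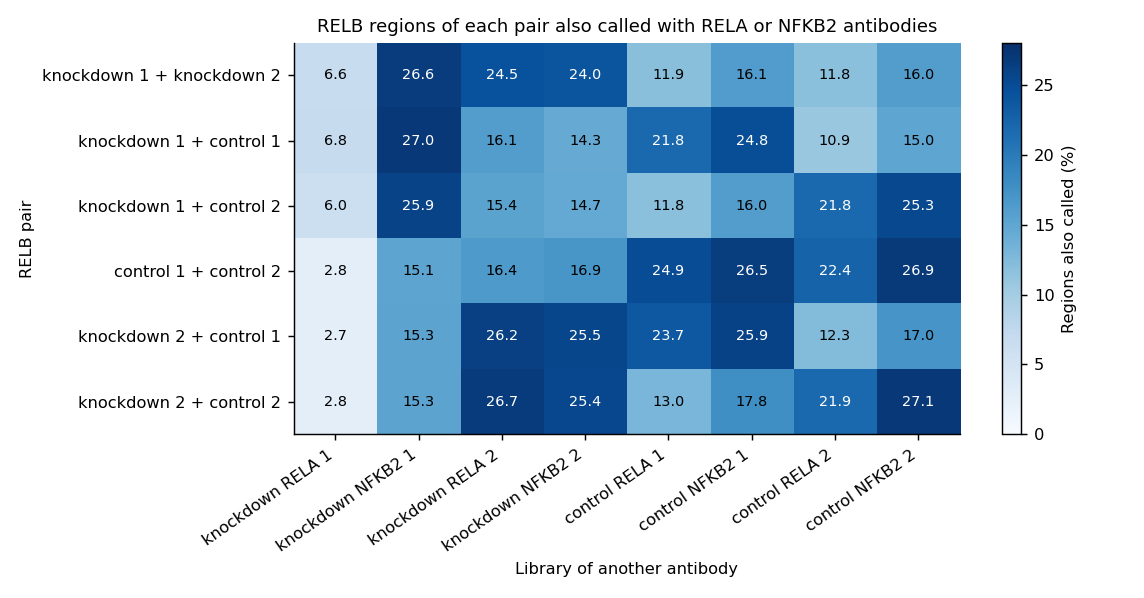
Share (%) of the RELB regions called in 1 pair only (rows) that each RELA or NFKB2 library (columns, ordered by condition and replicate) also called, at least 1 base shared. In every row the dark cells are the libraries matched to that pair in condition and number (21.8% to 27.1%, knockdown RELA 1 left out), whether the pair is of 1 condition or mixed.

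Genes were compared by whether a RELB peak fell in the gene or within 1 kb of it. Of 19821 protein-coding genes, 75 had a peak in both knockdown and in no control library (0.378%), and 1013 in both control and in no knockdown library (5.11%). Mixed pairs with knockdown 1 had 140 (0.706%) and 78 (0.394%), both above the knockdown pair. Those without it had 756 (3.81%) and 525 (2.65%), both below the control pair. In all 4 libraries 8812 genes (44.5%) had a peak, with a median length of 69.5 kb, against 4.99 kb for knockdown-only, 7.83 kb for control-only and 24.5 kb for all genes, so that long genes were seldom left to 1 condition. With lists of equal length the counts were 460 knockdown-only genes (mixed pairs 693 and 580) and 521 control-only genes (442 and 352), and 13 of the 75 and 49 of the 1013 genes were among them. No gene with a peak at a q-value of at most 0.05, of which there were 43, was knockdown-only or control-only.

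Knockdown-only genes were led by RAN, the small GTPase of nuclear transport (chr12:130872066-130877678). Knockdown 1 had 2 and knockdown 2 had 4 peaks there, neither control had any, and the best −log10 p-values were 3.41 and 4.45 on 7 and 8 fragments. TUBA1A, an alpha-tubulin, had 1 peak in each knockdown library at −log10 p-values of 3.10 and 3.41. The others were the matrix Gla protein MGP, a calcification inhibitor (1 and 6 peaks), the peptidyl-prolyl isomerase family member FKBP8 (1 and 2), the neuronal connexin GJD2 (1 and 1), the lipocalin LCN9, TMEM89, the olfactory receptors OR13H1 and OR10AG1, and LOC105371206. No best −log10 q-value of these 10 genes was above 0. Their lengths ran from 0.927 to 17.8 kb.

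Control-only genes were led by H2AP, a histone H2A relative on chromosome X, with 2 and 2 peaks, and by RAB43, a small GTPase of the Golgi, with 11 and 4. Their best −log10 p-values were 4.36 and 5.33 for H2AP and 4.27 and 4.53 for RAB43. APOL1, an apolipoprotein of innate immunity, had 5 and 4 peaks, and BIK, a BH3-only protein that promotes cell death, had 2 and 1. Then came the zinc finger gene ZNF587 (4 and 3), the hyaluronidase HYAL1 (4 and 2), the glycogen phosphorylase PYGB (9 and 5) and LOC124901637. TBC1D3L and SPANXA2 belong to families of near-identical copies. The only −log10 q-value above 0 was that of TBC1D3L in control 2, at 0.405 on 3 fragments.

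None of the 17 listed members of the noncanonical pathway was knockdown-only (0.378% of all genes were), and 1 was control-only (5.11% of all genes), while 6 had peaks in all 4 libraries (44.5% of all genes). The control-only one was TNFSF12, which encodes the ligand TWEAK, with 1 peak in each control library. Of the receptors, TNFRSF11A (RANK) had 2, 12, 12 and 17 peaks in knockdown 1, knockdown 2, control 1 and control 2, LTBR 0, 2, 3 and 1, and CD40 0, 3, 3 and 1. The regulators TRAF3 (5, 16, 27 and 15), BIRC2 (3, 6, 3 and 4) and BIRC3 (3, 1, 3 and 4) were called in every library. MAP3K14 had 1, 4, 10 and 2 peaks and CHUK 0, 10, 12 and 7. RELB itself had 0, 7, 12 and 2 and NFKB2 0, 0, 1 and 0. In TRAF2 (1, 1, 4 and 2), as in TNFSF12, both knockdown values lay below both control values. In the other genes named here the knockdown and control values met or overlapped.

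The other lists are read against all genes, of which 0.378% were knockdown-only and 5.11% control-only. None of 7 targets of the noncanonical pathway was specific to a condition: CXCL12 had 2, 2, 2 and 3 peaks and CXCL13 1, 20, 17 and 18. Of 30 NF-κB targets, none was knockdown-only and 2 control-only, BCL2L1 (0, 0, 10 and 5 peaks), which encodes a survival protein, and PLAU (0, 0, 1 and 2), which encodes urokinase. In that list the mixed pairs held 2 genes for knockdown 2 with control 2 and 1 each for knockdown 2 with control 1 and knockdown 1 with control 1. Among 21 members of the canonical pathway, TRADD was control-only (0, 0, 2 and 2), against 2 genes for knockdown 2 with control 2 and 1 each for knockdown 2 with control 1 and knockdown 1 with control 1. Of 18 genes of the luminal program, none belonged to a mixed pair. The transcription factors ELF3 (0, 0, 2 and 2) and XBP1 (0, 0, 2 and 1) were control-only. Their best −log10 p-values were 4.94 and 3.74 in control 1 but 1.38 and 1.53 in control 2. TFF3 (0, 2, 0 and 0) and KRT19 (0, 1, 0 and 0) had peaks in knockdown 2 only. ESR1, the estrogen receptor, had peaks in every library (12, 105, 83 and 76). None of 17 genes of γ-secretase and Notch and none of 9 stemness genes was specific to a condition. CDK5 (0, 0, 1 and 1) was the control-only one of 9 genes that the study discusses, of which 2 belonged to knockdown 2 with control 2. No gene of these 8 lists had a peak at a q-value of at most 0.05 in any RELB library.

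DAB2IP, the gene knocked down, had 5, 9, 31 and 15 peaks in knockdown 1, knockdown 2, control 1 and control 2. Per 100000 listed peaks these are 6.66 and 1.63 against 5.56 and 2.86, and the groups overlap. A ChIP peak does not measure the transcript, so these values do not check the knockdown.

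PSENEN, a subunit of γ-secretase (chr19:35745651-35747519), had 1, 2, 0 and 1 peaks. The peak of knockdown 1 (chr19:35745335-35745681, 5 fragments, −log10 p-value 2.97) covers most of the promoter printed above, and it overlaps the peak of control 2 (chr19:35745153-35745530, 5 fragments, 1.35). Both peaks of knockdown 2 lay elsewhere, at chr19:35744819-35745013 (5 fragments, 3.27) and chr19:35746383-35746681 (6 fragments, 4.17), so that the shared region at this promoter belonged to a mixed pair. TMEM147, a membrane protein of the endoplasmic reticulum (chr19:35545626-35547526), had 0, 1, 0 and 1 peaks. Its peaks rested on 4 and 3 fragments and lay 2899 and 2028 bp from the start site, at separate places past the end of the gene. The −log10 q-value of all these peaks was 0.

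Regions specific to a condition were also set against promoter windows. How many regions of mixed pairs, or of all merged regions, overlapped these windows was not counted. The counts below thus show neither an excess nor a lack at promoters. Of the knockdown-only regions, 19 overlapped a promoter window of a protein-coding gene (21 windows, chromosome 8 left out), and of the control-only regions 129 did (151 windows). The κB consensus occurred in 1 of the 21 windows (4.76%), in 7 of the 151 (4.64%) and in 1445 of all 22132 windows (6.53%). The window with a match among knockdown-only regions was that of PHACTR2, where both libraries had 3 fragments and −log10 p-values of 1.35 and 1.77. Those among control-only regions were DENND11, PTPRE, DZIP3, CLEC18B, SLC38A4, ETS2 and ARIH1, with 2 to 7 fragments a library. A match in a window need not lie in the called region. In PHACTR2, DENND11, DZIP3 and ARIH1 the match lay outside that region, as did 1 of the 2 matches in CLEC18B. The strongest knockdown-only promoter regions lay at ITPRIP (6 and 5 fragments), IQCF6 (5 and 4) and NUDT2 (4 and 4), and the strongest control-only ones at CTXN3 (5 and 7), FBXL19 (7 and 6) and SUPT20HL2 (4 and 5). None of these 6 windows, nor those of PSENEN and TMEM147, holds a match. A region needed only to touch its window. Both summits lay outside it at NUDT2, CTXN3 and FBXL19, and 1 summit did at ITPRIP and at SUPT20HL2. At NUDT2 the nearest control RELB peak lay 11 bp from the region. The sequence under summits outside a window was not searched.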

How the data were processed

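RELB ChIP libraries of T47D cells, 2 per condition, were grouped by their labels. The authors' provider mapped paired-end reads with BWA 0.7.12 to hg38 and called peaks per library with MACS2 2.1.0; the submitters' processing notes also name CASAVA 1.8 and DiffBind. The deposited lists give positions in bp, the fold enrichment at the summit (a ratio over local background), and −log10 p-values and q-values. Chromosomes 1 to 22 and X were used, an interval listed more than once was counted once (8 to 60 removed per library), and no interval exceeded the limit of 5000 bp. Positions are printed counted from 1. Fragments at summits were recovered from fold and p-value with a pseudocount of 1 (at least 99.996% of peaks within 0.002 of the listed −log10 p-value). Genes came from RefSeq (GRCh38.p14), 58419 of which are placed on these chromosomes, and start sites from the 15812 of 19821 protein-coding genes with a promoter sequence. Libraries were compared by overlap of at least 1 bp in Python 3.11.15 with scipy 1.17.1, pandas 2.3.3 and numpy 2.4.6, tested on simulated data, with exact permutation tests over the 4 libraries. P-values measure the spread between these libraries, which may be technical. The comparison, gene lists and settings were chosen with earlier results of these data known. Named were the 10 genes and 5 regions per condition with the largest weaker −log10 p-value, 5 regions outside blocks and 3 on promoters (none from chromosome 8), and genes of the lists.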

Additional observations from a re-analysis of the deposited data

Results flagged for a closer look

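Knockdown RELB replicate 1 had 1.683% of its listed peaks outside chromosomes 1 to 22 and X, sequences that the comparisons do not use, which is above both control libraries (1.536% and 1.620%). Knockdown replicate 2, with 1.460%, was below them.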

How the results depend on the processing

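Equal list lengths and gaps of at least 2 Mb were chosen after seeing the data; the other settings were planned. Of 104 recomputed values, 65 kept their direction, or stayed within 1.5 times of a count, 29 counts moved further and 10 differences reversed. Requiring a −log10 p-value of at least 2 left 1855 knockdown-only and 15008 control-only regions. At a q-value of at most 0.05 there were 4 and 8 regions. Of protein-coding genes, 1 was knockdown-only (mixed pairs 0 and 0) and 0 were control-only (mixed pairs 1 and 2). The 20000 smallest p-values gave 147 and 256 regions. They gave 359 knockdown-only genes (mixed pairs 478 and 395) and 378 control-only genes (mixed pairs 355 and 335). Equal list lengths gave 1148 and 1441 regions. They gave 460 knockdown-only genes (mixed pairs 693 and 580) and 521 control-only genes (mixed pairs 442 and 352). With summits within 100 bp there were 3049 knockdown-only regions (mixed pairs 3146 and 2851) and 22819 control-only ones (mixed pairs 23984 and 23519). With 5 kb added to genes there were 33 knockdown-only genes (mixed pairs 71 and 51). When 1 fragment was taken from summits of the 3 libraries that were not scaled, 15526 control-only regions were counted (mixed pairs 17265 and 17102). Knockdown-only genes then numbered 137 (mixed pairs 234 and 147). These settings shorten the lists or change what is joined, by construction. In the gene counts given here, knockdown-only genes were below and control-only genes above their mixed pairs, except at the q-value threshold. The difference in the satellite share reversed to 9.779 percentage points at a q-value of at most 0.05 and to 0.1839 with summits lowered by 1 fragment, and that in the gene share to 0.8 with the 20000 smallest p-values; the cause was not tested.

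Leaving out 1 library moved the log2 ratio of peak numbers between −2.849 and 0.03044 (without knockdown 2 and without knockdown 1). Knockdown-only regions ran from 6161 to 444038 and control-only regions from 45920 to 492157, and the genes from 169 to 492 and from 1337 to 5683, the highest of each being without knockdown 1, control 2, knockdown 1 and knockdown 2. A condition left with 1 library counts everything that library holds alone. The 5683 control-only genes differ, since both control libraries remained there and the short list of knockdown 1 was the only knockdown list. The desert difference ran from −1.327 to 1.834 percentage points, reversing without knockdown 2 and without control 1, the gene difference from −0.7122 to 0.5855, reversing without the same libraries, and the start-site difference from −0.2123 to 0.306, reversing without knockdown 1 and without control 2. With the replicate number as a block, the ratio of peak numbers stayed at −1.409 and the satellite difference at −0.06605 (exact sign-flip permutation, two-sided, p = 1 and p = 0.5, the smallest possible with 2 pairs), and no call changed. Over 2909 bins of 1 Mb, the deviations of replicate 1 from its condition mean correlated at 0.177 between knockdown and control. The log2 peak shares themselves correlated at 0.436 between the libraries numbered 1 and at 0.908 between those numbered 2. Within a condition they correlated at 0.414 (knockdown) and 0.894 (control). With 2 pairs the numbers are not shown to pair the libraries. No paired analysis was possible for counts of regions or genes because these come from no test.

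The peak lists carry no read depth. At a median of 3 or 4 fragments a summit, a region missing from a library cannot be told from one that fell short of the threshold by 1 fragment, and few regions pass an adjusted threshold in any library.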

Other observations

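Chromosomes 19 and X are given here out of 23, without counting intervals or shares over all merged regions. Chromosome 19 held 50 of the 5276 knockdown-only regions (0.948%), against 1.57% and 1.66% of the regions of the mixed pairs with knockdown 1. It held 1.58% of control-only regions, against 1.29% and 1.10% in the mixed pairs without knockdown 1. Chromosome X held 8.45% of knockdown-only regions (8.36% and 8.39% in the mixed pairs) and 10.8% of control-only regions (9.86% and 9.65%).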
